A study of Rattus norvegicus with 8 samples.

Results

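The start of estradiol treatment was compared in the hearts of old ovariectomised rats, with 2 arrays of hearts that received estradiol late set against 2 arrays of hearts that received it early. These 4 arrays were chosen by their titles from the 8 of the series and paired by replicate number. All animals were female Norway Brown rats aged 18 to 22 months. Early estradiol means ovariectomy with a 0.5 mg pellet of 17-β estradiol, releasing over 90 days, placed under the skin at surgery. Late estradiol means ovariectomy and the same pellet placed 9 weeks afterwards. The other 4 arrays, 2 after sham surgery with the ovaries left in place and 2 after ovariectomy with no pellet, are given beside them and entered the estimate of spread. Each array held RNA of 3 hearts pooled in equal amounts, so a p-value measures the spread between pools, which may be technical. The time at which hearts were taken, and so the length of exposure to estradiol in either group, was not stated in the labels.

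Estradiol is a steroid hormone made mainly by the ovaries, and it acts through nuclear receptors that bind DNA and through a membrane receptor. In the heart it is known to act on myocytes, vessels, fibroblasts and immune cells. Fibroblasts make the interstitial matrix, in which type I and type III collagen form fibres, lysyl oxidases crosslink them, and proteoglycans and matricellular proteins bind to them.

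All values below are log2 signals after quantile normalization over the 8 arrays, and each difference is late minus early, as a mean over both replicates with limma's standard error (n = 2 arrays per group). Levels are compared for 1 probe set between arrays, not between genes. Where several kept probe sets bore 1 symbol, the brightest stood for the gene, which gave 10450 genes. The 5587 of them with a mean of at least 6.13 are called bright.

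The deposited signals differed in brightness. The trimmed mean signal was 28.1 on late replicate 1, the dimmest array of all, 44.0 on early replicate 1, 104 on late replicate 2 and 137 on early replicate 2. Late replicate 1 also had the highest Gapdh 3' to 5' ratio, 2.70, where the other 7 arrays ran from 1.26 to 1.65. The 2 other such ratios did not single it out. Its actin ratio was 3.01, against 3.06 on ovariectomy replicate 2. Its hexokinase ratio of 4.52 lay within the range of the other 7, 2.63 to 7.2. Over bright genes the late minus early difference had an SD of 0.466 in replicate 1 and 0.326 in replicate 2. The part of brightness and RNA quality in the results was not tested, and the value of each replicate is therefore given beside the main results. The labelled tissue was borne out by its markers: all 9 cardiomyocyte markers measured were kept, and their summed signal was 56610 and 53420 on the late arrays and 55760 and 55630 on the early arrays. Of the atrial markers, Myl7 stood at 8.74 on early replicate 1, 7.53 on late replicate 1 and 3.89 to 6.49 elsewhere. Myl4 and Sln were also highest on early replicate 1 and next on late replicate 1, an order the other atrial markers did not share. The part of atrial tissue was not tested.

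No probe set passed the test. Of 18625 probe sets tested with limma, 0 (0%) had a Benjamini-Hochberg adjusted p under 0.05, and the smallest was 0.259. An unadjusted p under 0.05 was found for 1451 probe sets, against 931 expected by chance. Leaving out late or early replicate 1 removed this excess, while leaving out late or early replicate 2 did not. The number was 721 without the replicate block, also below 931, and 0 passed the adjusted threshold there as well. The count of 0 did not hold without late replicate 2, when 167 probe sets passed, 166 of them lower, nor without early replicate 1, when 1 passed (adjusted p = 0.0345), a dimmer probe set of Myh1 that does not stand for the gene here. The genes below are therefore described by their values and by the agreement of the replicates, and none is called changed.

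Agreement between the replicates was slight over the whole array. The difference had the same direction in both replicates for 55.2% of all genes and 56.4% of bright genes. Higher values with late estradiol in both replicates were seen for 2867 genes (27.4%), and lower values in both for 2905 (27.8%). A difference of at least 1.5-fold in both replicates was seen for 194 genes (1.86%) in the higher direction and 271 (2.59%) in the lower direction. Among bright genes it was seen for 23 (0.412%) higher and 55 (0.984%) lower. Both late arrays lay above both early arrays for 939 bright genes (16.8%) and below them for 845 (15.1%). Over all genes these counts were 1630 (15.6%) above and 1629 (15.6%) below. The median difference over all genes was -0.01.

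**Figure D1:**
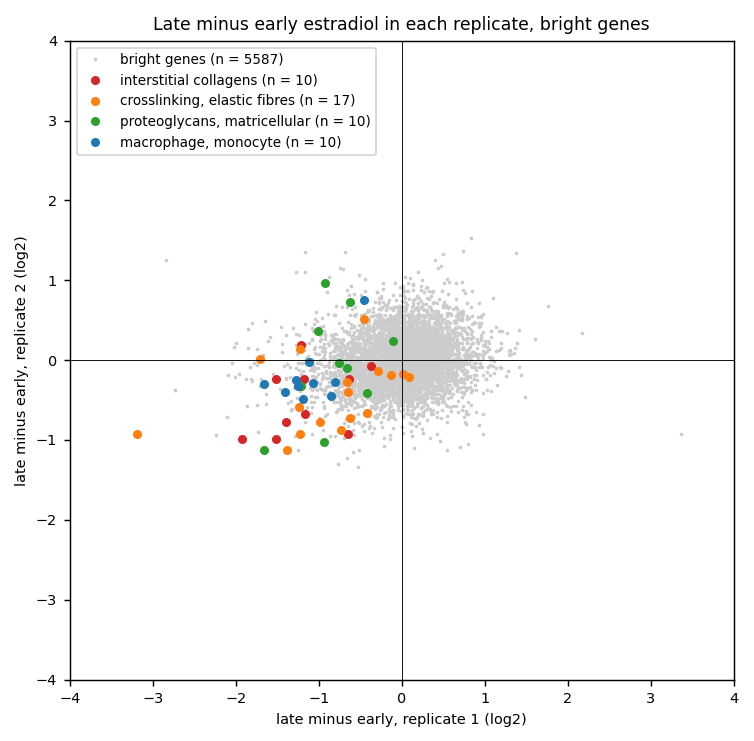
Late minus early difference of each bright gene in replicate 1 (horizontal axis) and replicate 2 (vertical axis), both on the log2 scale. Grey points are the 5587 bright genes, and coloured points are bright members of 4 gene lists. Most coloured points lie left of the vertical line at 0 and below the horizontal line at 0.

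Interstitial collagens lay lower with late estradiol than with early estradiol. All 13 kept collagen genes of the 15 on the array had a lower mean, 12 of them in both replicates. Of the 13, 7 were at least 1.5-fold lower in both, against 2.59% of all genes. The median difference was -0.87, with -1.21 in replicate 1 and -0.59 in replicate 2. None of the 13 passed limma's test over all probe sets. The summed signal of the list was 1533 and 1969 on the late arrays and 3572 and 2904 on the early arrays. It was 3681 and 4110 after ovariectomy alone and 2823 and 2404 after sham surgery, so that the late arrays had the lowest totals of the 8. In bulk heart RNA, fewer fibroblasts and less collagen RNA per fibroblast cannot be told apart.

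The named gene of smallest p was Col3a1, which encodes the chain of type III collagen. Col3a1 stood at 8.81 and 8.98 on the late arrays and at 10.21 and 9.75 on the early arrays. It stood at 10.59 and 10.64 after ovariectomy alone and at 9.91 and 9.74 after sham surgery. Both late values lay below all 6 others, and the difference was -1.08 ± 0.17, a 2.12-fold lower level (limma adjusted p = 0.259).

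Both chains of type I collagen, the main fibre of the cardiac interstitium, also stood lowest on the late arrays. Col1a1 stood at 6.28 and 6.60 on the late arrays, 8.20 and 7.59 on the early arrays, 7.98 and 8.31 after ovariectomy alone and 7.30 and 6.88 after sham surgery. Its difference was -1.45 ± 0.28 (limma adjusted p = 0.503), and its other kept probe set had the same direction. Col1a2 stood at 7.26 and 6.85 on the late arrays, 8.78 and 7.84 on the early arrays, 8.13 and 8.35 after ovariectomy alone and 8.19 and 7.55 after sham surgery. Its difference was -1.26 ± 0.26 (limma adjusted p = 0.526). For both genes late and early did not overlap.

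The remaining collagens were less uniform. Col14a1, a collagen that associates with the surface of fibrils, stood at 7.51 and 7.95 on the late arrays and 8.68 and 8.63 on the early arrays, with a difference of -0.93 ± 0.22. Its other kept probe set went in the opposite direction. Col5a1 went opposite ways, at -1.21 in replicate 1 and 0.19 in replicate 2. Col16a1 stood close to 0, at -0.06 ± 0.37. For 10 of the 13 collagens both late arrays lay below both early arrays, which held for 15.6% of all genes. For 6 of the 13 they lay below all 6 other arrays, which held for 4.07% of all genes.

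The promoters of 3 matrix genes from the 12 bright genes that lay lowest are shown, because these genes lay lower in both replicates. The first base of each run lies 250 bases before the start of the gene as RefSeq gives it. They are RefSeq sequences of the GRCr8 build, 5′ to 3′ on the strand of the gene, and reach 50 bases past the start. Capitals mark the letters CCAAT on either strand, GGGCGG on either strand, TATAAA on either strand, or TGANTCA.
Postn, chr2:140677811-140678110, plus strand: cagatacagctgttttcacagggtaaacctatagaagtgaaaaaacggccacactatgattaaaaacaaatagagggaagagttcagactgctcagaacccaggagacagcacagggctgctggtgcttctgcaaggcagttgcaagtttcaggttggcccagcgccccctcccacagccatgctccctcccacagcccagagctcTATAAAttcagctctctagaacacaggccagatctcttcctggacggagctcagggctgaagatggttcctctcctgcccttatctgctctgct
Col1a2, chr4:33518307-33518606, plus strand: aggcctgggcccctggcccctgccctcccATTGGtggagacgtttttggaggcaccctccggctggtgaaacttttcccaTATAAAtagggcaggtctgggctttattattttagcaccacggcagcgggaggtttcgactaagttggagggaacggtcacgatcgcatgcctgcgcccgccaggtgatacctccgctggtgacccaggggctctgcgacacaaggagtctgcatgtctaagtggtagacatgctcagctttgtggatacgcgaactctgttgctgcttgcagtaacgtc
Loxl1, chr8:67612175-67612474, minus strand: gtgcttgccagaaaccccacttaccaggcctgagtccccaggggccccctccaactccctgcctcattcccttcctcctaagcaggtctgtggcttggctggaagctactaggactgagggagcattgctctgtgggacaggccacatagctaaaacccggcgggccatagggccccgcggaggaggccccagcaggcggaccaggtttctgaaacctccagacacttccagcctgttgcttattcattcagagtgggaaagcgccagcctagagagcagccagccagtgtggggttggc

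In these windows Postn held TATAAA with its first base at position -44. Col1a2 held TATAAA at -170 and CCAAT, read on the minus strand, at -221. Positions count from the RefSeq start, which was not checked against the start of transcription. In the Col1a2 window the bases past that start open with ATG, so its positions may not compare with those of Postn. Loxl1 held none of the 4 motifs marked. The estrogen response element, searched as GGTCA, any 3 bases and TGACC, was found in 0 of the 9 collagen promoters in the table and in 0.0269% of all 33469 promoters of this length. Its single arm TGACC, on either strand, was found in 2 of the 9, Col1a2 and Col15a1, and in 40.5% of all promoters. CCAAT was in 37.5% of all promoters, GGGCGG in 33.1%, TATAAA in 14.2% and TGANTCA in 7.33%. A full element contains the arm, so these searches overlap.

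Genes of matrix crosslinking and elastic fibres lay lower with late estradiol as well. Of 29 kept genes, 25 had a lower mean, 21 of them in both replicates. By at least 1.5-fold in both, 9 were lower, against 2.59% of all genes. The median was -0.55, with -0.66 in replicate 1 and -0.40 in replicate 2, and 0 of the 29 passed the test.

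Loxl1, a lysyl oxidase that crosslinks elastin, stood at 6.06 and 6.02 on the late arrays, 7.29 and 6.95 on the early arrays, 7.54 and 7.07 after ovariectomy alone and 7.37 and 7.13 after sham surgery. The late arrays were the lowest of all, and the difference was -1.08 ± 0.24 (limma adjusted p = 0.545). Mfap4, a glycoprotein of elastic microfibrils, stood at 7.16 and 7.46 on the late arrays, 8.54 and 8.59 on the early arrays, 8.49 and 9.18 after ovariectomy alone and 8.96 and 8.12 after sham surgery. It showed no overlap between late and any other group, with a difference of -1.25 ± 0.30 (limma adjusted p = 0.545). Its microfibril partner Mfap5 differed by -0.91 ± 0.23, and Ltbp4, which binds latent TGF-beta to microfibrils, by -0.87 ± 0.21. For both, the late arrays lay below both early arrays.

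Pcolce, which enhances the removal of the C-propeptide from fibrillar procollagens, had the widest gap between replicates of the bright genes named. It stood at 3.62 and 6.02 on the late arrays and 6.81 and 6.94 on the early arrays, a difference of -2.06 ± 0.58 (limma adjusted p = 0.545). The lowest value was on late replicate 1, and without that array the difference was -0.99.

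Proteoglycans and matricellular proteins gave 14 lower means of 17 kept genes, 13 of them lower in both replicates. By at least 1.5-fold in both, 6 were lower, against 2.59% of all genes. The median was -0.55, and it was -0.27 without early replicate 1 and -0.89 without early replicate 2. Postn, periostin, a matricellular protein of activated fibroblasts, stood at 5.91 and 6.44 on the late arrays, 7.56 and 7.58 on the early arrays, 6.89 and 8.02 after ovariectomy alone and 6.10 and 6.91 after sham surgery. Late and early arrays did not overlap, but sham replicate 1 lay within the range of the late arrays, and the difference was -1.39 ± 0.29 (limma adjusted p = 0.503).

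Fn1, fibronectin, stood at 7.45 and 6.83 on the late arrays, 8.39 and 7.86 on the early arrays, 6.92 and 9.21 after ovariectomy alone and 7.32 and 7.19 after sham surgery. Late and early did not overlap, but the 2 ovariectomy arrays lay further apart than any late and early pair, and the difference was -0.99 ± 0.55 (limma adjusted p = 0.686). Without early replicate 1 it was -0.47, and without late replicate 2 it was -0.40. Vcan, the large proteoglycan versican, differed by -1.14 ± 0.32 and its other 2 kept probe sets had the same direction. Thbs4, a thrombospondin, differed by -1.53 ± 0.40, and Prelp, a small leucine-rich proteoglycan, by -0.90 ± 0.34.

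**Figure D2:**
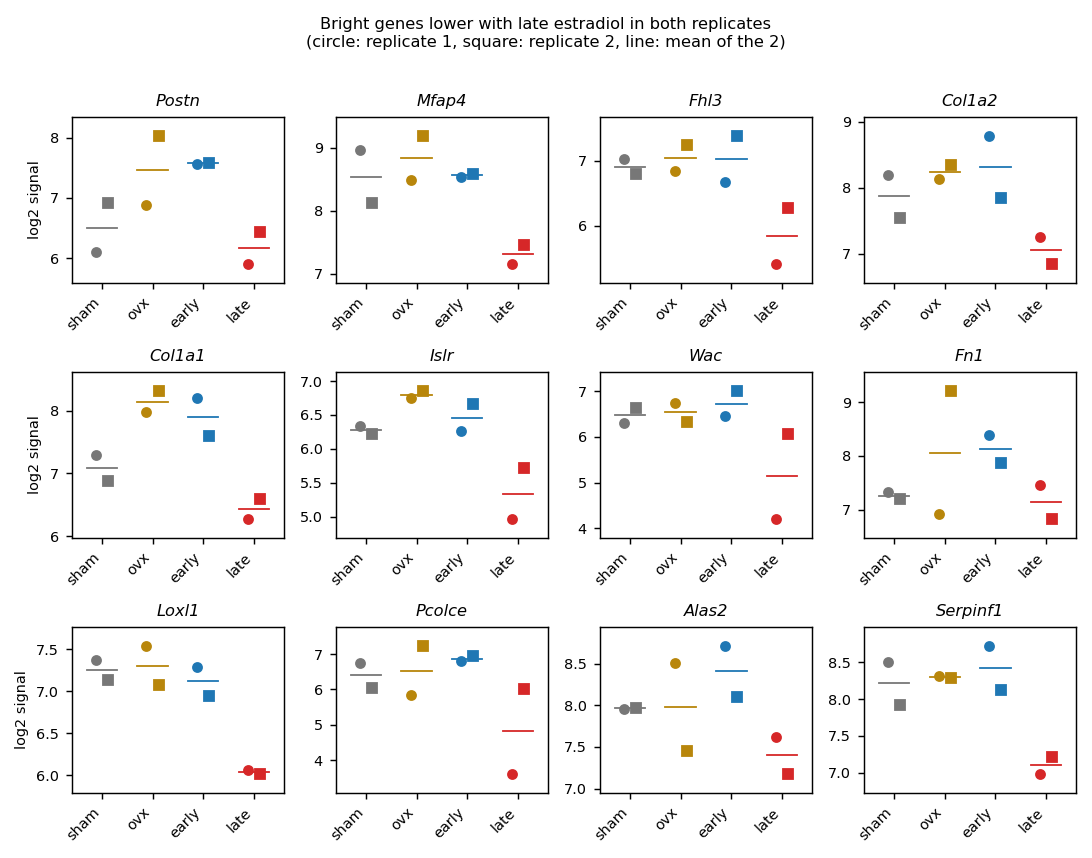
Log2 signal of the 12 bright genes that lay lowest with late estradiol by the smaller of the 2 replicate differences, on each of the 8 arrays by group. Circles are replicate 1, squares replicate 2, and lines the mean of a group. In every panel both late arrays lie below both early arrays.

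Fibroblast markers include several of the matrix genes above, and 13 of 14 kept markers had a lower mean. Of the 14, 10 were lower in both replicates, and the median was -0.43. The median was -0.26 without early replicate 1, and -0.72 without either early replicate 2 or late replicate 2. Tcf21, Dpt, Pdgfra and Gsn were lower in replicate 1 and higher in replicate 2. Pdgfra and Gsn stood near 0, at 0.05 ± 0.21 and -0.01 ± 0.15. Dcn, decorin, a small proteoglycan that binds collagen fibrils, stood at 10.69 and 11.11 on the late arrays and 11.35 and 11.22 on the early arrays. Its difference was -0.38 ± 0.15, and the groups did not overlap. Basement membrane genes had a median near that of all genes, at -0.09 over 14 genes (-0.16 to -0.02 with 1 array left out), and 9 of the 14 had a lower mean. The members of smallest p lay lower in both replicates, with no overlap between late and early. They were Col18a1, a dim gene, at -1.94 ± 0.57, Lamc1 at -0.35 ± 0.16, Col4a2 at -0.41 ± 0.22 and Col4a1 at -0.35 ± 0.19. Metalloproteinases and their inhibitors had a median of 0.04 over 15 genes, while the medians of single replicates were -0.30 and -0.14 and those with 1 array left out -0.29 to -0.16. Lower means were seen for 7 of the 15. Among these, Mmp2 differed by -0.65 ± 0.21 and Timp2 by -0.50 ± 0.16, with the late arrays the lowest of all. Timp1 differed by -2.21 ± 0.73, of which -3.86 in replicate 1 and -0.56 in replicate 2. TGF-beta ligands, receptors and targets had 14 lower means of 17, with a median of -0.14 (-0.32 to -0.10 with 1 array left out) and 0 genes at 1.5-fold in both replicates.

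Serpinf1, a secreted serpin also called pigment epithelium-derived factor, was among the 5 genes of smallest p in the lower direction. It stood at 6.99 and 7.21 on the late arrays, 8.72 and 8.12 on the early arrays, 8.32 and 8.28 after ovariectomy alone and 8.51 and 7.92 after sham surgery. Both late arrays lay below the 6 others, with a difference of -1.32 ± 0.24 (limma adjusted p = 0.428). Islr, a secreted protein of mesenchymal stromal cells, stood at 4.97 and 5.71 on the late arrays and 6.26 and 6.66 on the early arrays, and differed by -1.12 ± 0.30.

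Among the bright genes that lay lower without belonging to the matrix were Fhl3, Wac and Alas2. Fhl3, a LIM domain protein of striated muscle, stood at 5.41 and 6.27 on the late arrays and 6.67 and 7.38 on the early arrays, with a difference of -1.19 ± 0.30. Wac, an adaptor for histone ubiquitination, stood at 4.21 and 6.06 on the late arrays, with a late minus early difference of -2.24 in replicate 1 and -0.94 in replicate 2. Its mean difference of -1.59 ± 0.44 was -0.74 without late replicate 1. Alas2, the first enzyme of haem synthesis in red cell precursors, stood at 7.62 and 7.18 on the late arrays and 8.71 and 8.10 on the early arrays, with a difference of -1.08 in replicate 1 and -0.92 in replicate 2. All 3 red cell genes kept (Alas2, Hbb and Slc4a1) had lower values in both replicates, and Hbb, a beta-globin gene, differed by -0.32 ± 0.14. The median of the 3 without early replicate 1 was -0.36.

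Genes of acute inflammation stood lower with late than with early estradiol, and here the early arrays were the ones that stood apart. Of 15 kept acute phase and calprotectin genes, 14 had a lower mean, 11 of them in both replicates, and 0 passed the test. By at least 1.5-fold in both, 5 were lower, against 2.59% of all genes. The median was -0.82, with -1.30 in replicate 1 and -0.44 in replicate 2. For 6 of the 15 both early arrays lay above the 6 others, which held for 1.92% of all genes. The summed signal was 3450 and 1786 on the early arrays, 1386 and 1408 on the late arrays, 1120 and 1663 after ovariectomy alone and 1184 and 1026 after sham surgery. Without early replicate 1 the median was -0.28, and without early replicate 2 it was -1.25.

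S100a8 and S100a9 encode the subunits of calprotectin, a protein abundant in neutrophils. S100a8 stood at 3.87 and 4.15 on the late arrays, 6.60 and 4.94 on the early arrays, 3.55 and 4.17 after ovariectomy alone and 4.12 and 3.81 after sham surgery. Early replicate 1 was the highest array and early replicate 2 the next, with a difference of -1.75 ± 0.64 (limma adjusted p = 0.612). S100a9 stood at 6.00 and 5.06 on the late arrays, 8.19 and 6.03 on the early arrays, 4.06 and 5.40 after ovariectomy alone and 4.70 and 4.30 after sham surgery. Late replicate 1 came close to early replicate 2 for S100a9, and the difference was -1.58 ± 0.64.

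Pla2g2a, a secreted phospholipase of the acute phase, stood at 9.85 and 9.86 on the late arrays and 11.15 and 10.20 on the early arrays. It stood at 9.47 and 9.46 after ovariectomy alone and at 9.46 and 9.22 after sham surgery. All 4 estradiol arrays lay above the 4 others, the early ones furthest, and the late minus early difference was -0.82 ± 0.22 (limma adjusted p = 0.545). Lcn2, lipocalin 2, an iron-chelating protein of neutrophils, differed by -1.22 ± 0.41. Lbp, which carries lipopolysaccharide, differed by -1.54 ± 0.53. The 3 neutrophil markers kept, Lcn2, S100a8 and S100a9, lay lower in both replicates, and their summed signal was 106.7 and 82.2 on the late arrays and 464.7 and 158.9 on the early arrays. The other 4 neutrophil markers on the array, Camp, Mmp8, Csf3r and Cxcr2, were too dim to be kept. The part of neutrophils in these values was not tested.

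Complement genes gave 12 lower means of 13 kept genes, 8 of them lower in both replicates. By at least 1.5-fold in both, 1 of the 13 was lower, against 2.59% of all genes. The median was -0.77, with -1.26 in replicate 1 and -0.25 in replicate 2, and it was -0.36 without early replicate 1 and -0.47 without late replicate 1. C3, the central component of the cascade, stood at 5.55 and 3.94 on the late arrays, 7.39 and 5.65 on the early arrays, 4.23 and 4.47 after ovariectomy alone and 3.77 and 4.29 after sham surgery. The early arrays were the highest of the 8, late replicate 1 came close to early replicate 2, and the difference was -1.77 ± 0.60 (limma adjusted p = 0.612).

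Of the complement regulators, Serping1, the inhibitor of C1, stood at 8.20 and 8.58 on the late arrays, 9.45 and 9.06 on the early arrays, 8.77 and 8.68 after ovariectomy alone and 8.76 and 8.72 after sham surgery. Its late arrays were the lowest and its early arrays the highest of the 8, with a difference of -0.87 ± 0.20 (limma adjusted p = 0.545). Clu, clusterin, a secreted chaperone that inhibits the terminal complex, differed by -0.54 in replicate 1 and -0.58 in replicate 2, a mean of -0.56 ± 0.11 (limma adjusted p = 0.503). Its other kept probe set went in the opposite direction.

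Macrophage and monocyte markers had a lower mean for 19 of 21 kept genes, 15 of them in both replicates. By at least 1.5-fold in both, 1 of the 21 was lower, against 2.59% of all genes. The median was -0.77, with -1.28 in replicate 1 and -0.29 in replicate 2. Without early replicate 1 the median was -0.14, and 14 of 21 means were lower. Without early replicate 2 it was -1.45. The summed signal was 1962 and 3075 on the late arrays and 4257 and 3519 on the early arrays, against 2345 and 2493 after sham surgery and 2285 and 9123 after ovariectomy alone.

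C1qa, a chain of the C1q protein that macrophages secrete, stood at 6.50 and 7.87 on the late arrays and 8.16 and 8.16 on the early arrays. Its groups did not overlap, and the difference was -0.98 ± 0.32. Cybb, the catalytic subunit of the phagocyte oxidase, differed by -1.05 ± 0.36, and Cd68, a lysosomal protein of macrophages, by -1.99 ± 0.71, of which -3.16 in replicate 1 and -0.82 in replicate 2. Fcgr3a, an Fc receptor, went the other way at 1.62 ± 0.51. None of these passed limma's test.

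**Figure D3:**
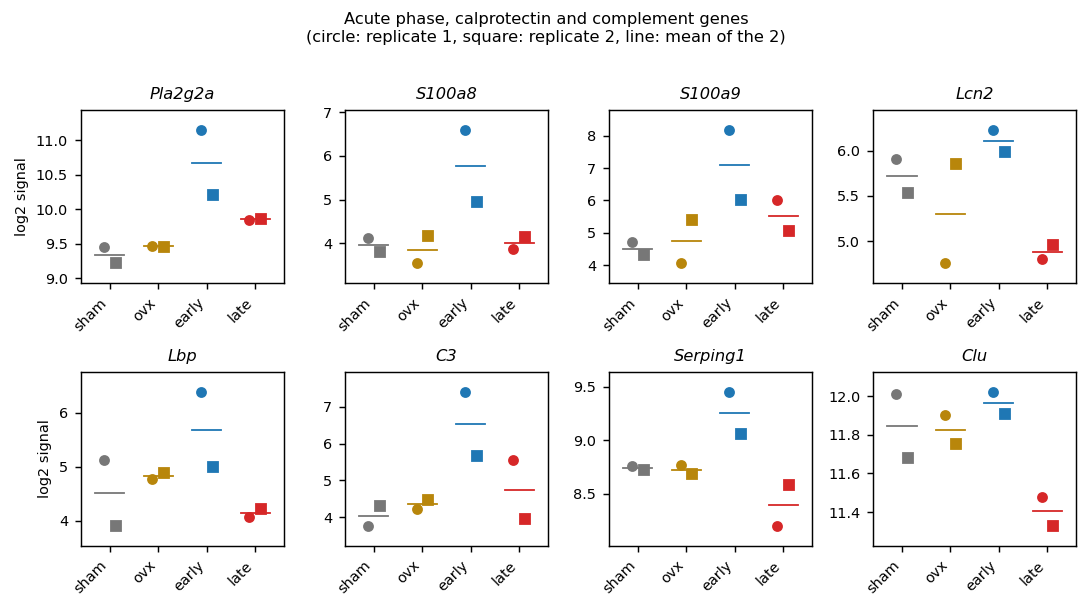
Log2 signal of 5 acute phase or calprotectin genes and 3 complement genes on each of the 8 arrays by group. Circles are replicate 1, squares replicate 2, and lines the mean of a group. Both early arrays lie above both late arrays in each panel, with early replicate 1 the higher of the early pair in all 8.

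MHC class II genes had a median of -0.04 over 11 genes, which was 0.26 without early replicate 1 and -0.24 without early replicate 2. MHC class I presentation had 14 higher means of 20, 10 in both replicates, and a median of 0.11 (0.11 to 0.23 with 1 array left out). Interferon-stimulated genes had 19 higher means of 32, 15 in both replicates, and a median of 0.18 (0.03 without late replicate 1). Igtp, an interferon-induced GTPase, stood at 6.95 and 6.65 on the late arrays and 6.38 and 6.19 on the early arrays, a difference of 0.52 ± 0.27. With arrays centred on their medians in place of quantiles, the class I and interferon medians turned negative, to -0.10 and -0.17, where the median of all genes was -0.28. T and NK cell markers had a median of 0.06 over 13 genes, and of -0.11 without early replicate 1. Of the 3 mast cell genes kept, Tpsb2 and Cpa3 lay lower in both replicates and Tpsab1 higher, with a median of -1.97 that was -0.65 without late replicate 1 and -3.18 without late replicate 2. It was 0.83, with 0 members lower, in a fit on the late and early arrays alone, where the level filter kept fewer of them. All 3 were dim, and the other 8 mast cell markers on the array were not kept.

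**Figure D4:**
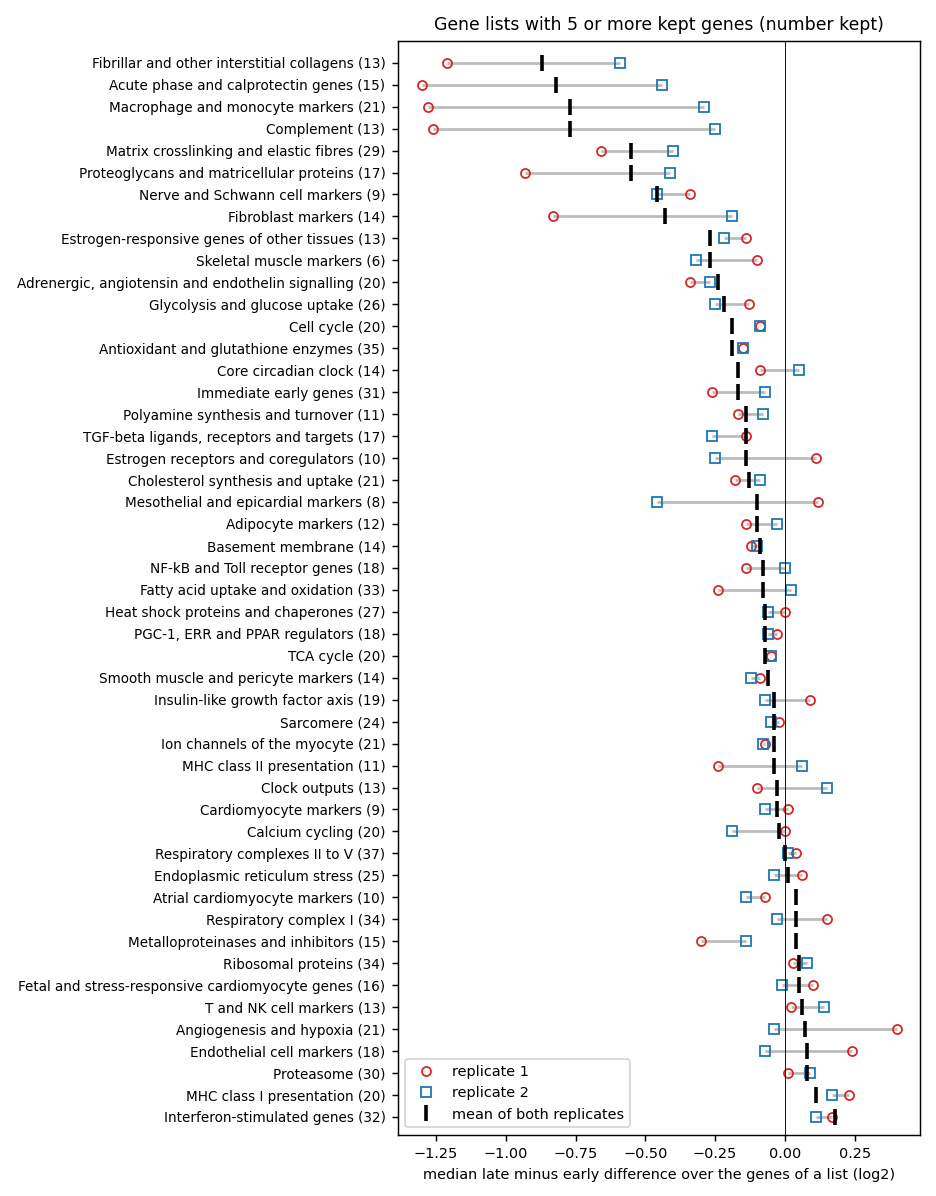
Median late minus early difference on the log2 scale over the kept genes of each of the 49 lists with 5 or more kept genes (the number kept is in brackets). Circles are replicate 1, squares replicate 2, and black ticks the median of the mean over both replicates. Collagens, acute phase, macrophage and complement lists lie furthest to the left, and most lists lie near 0.

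Of the 23 bright genes at least 1.5-fold higher with late estradiol in both replicates, Nipsnap2 had the largest agreeing difference. Nipsnap2 is a mitochondrial protein of the NIPSNAP family. It stood at 10.78 and 8.88 on the late arrays, 9.41 and 7.53 on the early arrays, 9.65 and 8.46 after ovariectomy alone and 9.00 and 8.13 after sham surgery. Replicate 1 lay above replicate 2 in each group, so that late and early overlapped, while the difference was 1.38 in replicate 1 and 1.34 in replicate 2. The mean was 1.36 ± 0.25, a 2.57-fold higher level (limma adjusted p = 0.428), and its other kept probe set had the same direction. In a fit on the late and early arrays alone, where 4 probe sets passed, Nipsnap2 had a limma adjusted p of 0.011.

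Mitochondrial genes were among the rest. Cox5a, a subunit of cytochrome c oxidase, stood at 7.64 and 7.03 on the late arrays and 6.81 and 5.50 on the early arrays, and the late arrays were the highest of the 8. Its difference was 1.18 ± 0.33, and it was 0.63 without early replicate 2. Ndufaf5, an assembly factor of complex I, stood at 7.11 and 6.54 against 5.35 and 5.87, a difference of 1.22 ± 0.38 that was 0.71 without early replicate 1. Respiratory complex I had a median of 0.04 over 34 genes and complexes II to V a median of 0.00 over 37.

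Ccnt2, cyclin T2 of the elongation factor P-TEFb, stood at 8.58 and 7.82 on the late arrays and 7.74 and 6.97 on the early arrays. The late arrays were the highest of all, by 0.85 ± 0.27 over early, and 2 of its 3 other kept probe sets had the same direction. Ssb, the La RNA-binding protein, stood at 8.62 and 8.42 against 7.84 and 7.70, a difference of 0.75 ± 0.29, but its other kept probe set went the opposite way. Atp8a1, a phospholipid flippase, differed by 0.80 ± 0.26, and its other probe set also went the opposite way. The rest of the 12 bright genes with the largest agreeing differences were Iqub, Prrc2c, Rec114, Rnf151 and the predicted loci LOC102549828 and LOC100909739. Their differences ran from 0.75 to 1.05. For Prrc2c the difference was 0.85 over both replicates, and 0.23 to 1.47 with 1 array left out. Of its 2 other kept probe sets, 1 had the same direction.

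**Figure D5:**
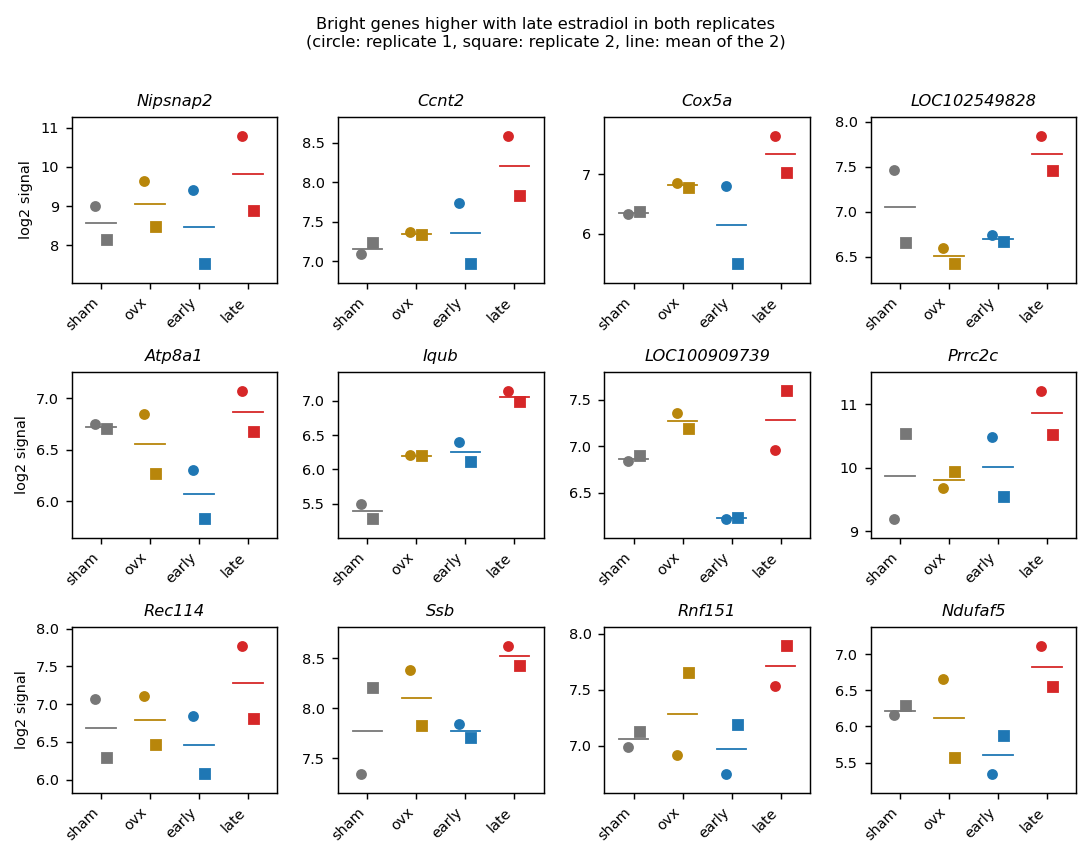
Log2 signal of the 12 bright genes that lay highest with late estradiol by the smaller of the 2 replicate differences, on each of the 8 arrays by group. Circles are replicate 1, squares replicate 2, and lines the mean of a group. Late lies above early within each replicate in all panels, and late and early arrays overlap for Nipsnap2 and Rec114.

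Of the 5 genes of smallest p in the higher direction, Nipsnap2 and Tma7 were bright and the other 3 were dimmer. Kcnq5, a voltage-gated potassium channel, stood at 6.81 and 4.68 on the late arrays and 4.10 and 2.87 on the early arrays, a difference of 2.26 ± 0.46 (limma adjusted p = 0.503). Ampd2, an AMP deaminase, stood at 6.11 and 5.93 on the late arrays and 4.92 and 4.07 on the early arrays. The early arrays of Ampd2 were the lowest of the 8, and the difference was 1.53 ± 0.36. Tma7, of the translation machinery, differed by 0.79 ± 0.19. Tle6, of the Groucho corepressor family, differed by 3.83 in replicate 1 and 2.17 in replicate 2.

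In the lower direction, Tpgs1, a subunit of tubulin polyglutamylase, stood at 1.42 and 1.16 on the late arrays and 4.49 and 5.77 on the early arrays, a difference of -3.84 ± 0.67 (limma adjusted p = 0.398). Its late values lay below the filter level of 3.69, in the range of dim signals. The uncharacterised C13h1orf74 stood at 2.76 and 4.06 on the late arrays and 6.32 and 6.23 on the early arrays, a difference of -2.87 ± 0.46 (limma adjusted p = 0.259). It was 5.60 and 5.82 after sham surgery and 4.60 and 5.97 after ovariectomy alone, so the late arrays were the lowest and the early arrays the highest of the 8. Late replicate 1 lay below the filter level here as well.

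Of 26 kept genes of glycolysis and glucose uptake, 20 had a lower mean and 14 were lower in both replicates, with a median of -0.22. Without early replicate 2, 15 of the 26 were lower and the median was -0.14. Ldha, lactate dehydrogenase A, stood at 11.12 and 11.19 on the late arrays, 11.51 and 11.60 on the early arrays, 11.58 and 11.48 after ovariectomy alone and 11.65 and 11.63 after sham surgery. The late arrays were the lowest of the 8, by -0.40 ± 0.12 against early (limma adjusted p = 0.546). Gys1, muscle glycogen synthase, differed by -0.77 ± 0.22, Pygm, muscle glycogen phosphorylase, by -0.48 ± 0.15, and Eno1, enolase 1, by -0.43 ± 0.16. Fatty acid uptake and oxidation had a median of -0.08 over 33 genes (-0.22 to 0.04 with 1 array left out), and the TCA cycle of -0.07 over 20 (-0.13 to 0.00).

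Antioxidant and glutathione enzymes had 23 lower means of 35, 18 of them lower in both replicates, and a median of -0.19. Gpx3, the secreted glutathione peroxidase, differed by -0.60 ± 0.21, and Gsta1, a glutathione transferase, by -0.73 ± 0.28. Adrenergic, angiotensin and endothelin signalling had 17 lower means of 20, 12 in both replicates, and a median of -0.24. Grk5, a kinase of G protein-coupled receptors, differed by -1.80 ± 0.59, of which -2.96 in replicate 1 and -0.65 in replicate 2. Adcy5, the main adenylyl cyclase of the heart along with Adcy6, differed by -0.68 ± 0.23.

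For the contractile myocyte the probe sets of a gene gave different values. Myh6, the alpha myosin heavy chain, stood at 12.74 and 12.41 on the late arrays and 12.73 and 12.48 on the early arrays, a difference of -0.03 ± 0.11. Its other kept probe set stood at 7.78 and 8.03 on the late arrays and 9.90 and 9.43 on the early arrays, a difference of -1.76 ± 0.31 (limma adjusted p = 0.398), and the mean of both was -0.90. That probe set passed with only the late and early arrays, at -1.75 (limma adjusted p = 0.00886), and without normalization, at -2.35 (limma adjusted p = 0.00498). Myh7, the beta chain, stood at 13.04 and 13.22 in both groups, a difference of 0.00 ± 0.12, and the mean over its 2 kept probe sets was -0.50. Atp2a2, which pumps calcium back into the sarcoplasmic reticulum, differed by -0.05 ± 0.11, and by 0.21 as the mean of its probe sets. The direction of all 3 turned under some of the alternatives, and probe sets of Myh6, Myh7 and Des were among the 167 that passed without late replicate 2. Cardiomyocyte markers had a median of -0.03 over 9 genes and sarcomere genes of -0.04 over 24.

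Natriuretic peptides, hormones that myocytes secrete under load, gave different pictures. Nppb stood at 11.42 and 11.49 on the late arrays and 11.17 and 11.07 on the early arrays. Late and early did not overlap, but sham surgery spanned 10.98 to 11.45, and the difference was 0.33 ± 0.15 (limma adjusted p = 0.639), or 0.20 without early replicate 2. Nppa went opposite ways in the replicates, at 0.75 and -0.40, with a mean of 0.18 ± 0.56. It stood at 11.81 and 10.85 on the late arrays and ranged from 8.85 to 11.46 on the other 6.

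Bex1, a small adaptor protein, stood at 10.07 and 9.53 on the late arrays, 9.41 and 8.89 on the early arrays, 8.52 and 9.07 after ovariectomy alone and 7.90 and 8.05 after sham surgery. The late arrays were the highest of the 8, by 0.65 ± 0.25 over early (limma adjusted p = 0.629). Fhl1, a LIM protein of the sarcomere known from hypertrophic hearts, went the other way at -0.47 ± 0.14, with both late arrays the lowest of the 8. Rcan1, an inhibitor of calcineurin, differed by -0.57 ± 0.20.

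Perm1 and Ppargc1a, a muscle regulator of mitochondrial genes and the coactivator PGC-1 alpha, had higher values with late estradiol. Perm1 stood at 9.87 and 9.44 on the late arrays and 9.21 and 8.46 on the early arrays, a difference of 0.81 ± 0.26. Ppargc1a stood at 8.88 and 8.52 on the late arrays and 8.44 and 7.91 on the early arrays, with the late arrays the highest of the 8 and a difference of 0.53 ± 0.22 (limma adjusted p = 0.632). Its other kept probe set went the opposite way, and the mean of both probe sets was -0.05. The list of PGC-1, ERR and PPAR regulators had a median of -0.07 over 18 genes (-0.11 to 0.00 with 1 array left out).

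The nuclear estrogen receptors Esr1 and Esr2 and the progesterone receptor Pgr, a classical target of estradiol, were too dim on these arrays to be kept. Gper1, the membrane estrogen receptor, was dim and unstable: it stood at 4.36 and 2.43 on the late arrays and 4.31 and 3.77 on the early arrays, a difference of -0.64 ± 0.80 that was 0.27 without early replicate 2. Genes known to respond to estrogen in other tissues had 9 lower means of 13 and a median of -0.27, which was -0.07 without late replicate 2, -0.16 without late replicate 1 and -0.14 without early replicate 1.

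Ribosomal protein genes had 22 higher means of 34, 17 in both replicates, with a median of 0.05, and proteasome genes 24 higher means of 30 with a median of 0.08. With median centring 22 of the 34 and 29 of the 30 were lower, with medians of -0.07 and -0.27 where that of all genes was -0.28. Without late replicate 2 the proteasome median was 0.03. Rpl35, a protein of the large ribosomal subunit, differed by 0.30 ± 0.12. Endothelial markers had a median of 0.08 over 18 genes (-0.07 to 0.22 with 1 array left out), smooth muscle and pericyte markers of -0.06 over 14 and adipocyte markers of -0.10 over 12. Nerve and Schwann cell markers had 7 lower means of 9 and a median of -0.46, or -0.18 without early replicate 1. Of these, Mbp, myelin basic protein, differed by -1.76 ± 0.52 and Ncam1, a neural adhesion molecule, by -0.94 ± 0.29.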

How the data were processed

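The values the authors deposited are linear intensities for each probe set, which MAS5 produced according to the labels (per the submitters' processing notes). The MAS5 version, scaling and detection calls are not stated there. From these intensities, log2 values were taken and quantile normalized over the 8 arrays. Of 31099 probe sets, 57 controls were left out, and the 18625 with a mean log2 value of at least 3.69 (the 40th percentile) were tested with limma 3.58.1 in R 4.3.3, as group means with the replicate number as a block, with an intensity trend and 3 residual degrees of freedom. P-values are two-sided and Benjamini-Hochberg adjusted over all of them, at 0.05. The number pairs the arrays because the differences of replicate 2 from replicate 1 were correlated across genes between every 2 groups (6 pairs, r from 0.28 to 0.33).

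Names came from the platform annotation, which gave 1 symbol for 20826 probe sets, several for 436 and none for 9780; of the 20826, 20758 matched RefSeq. Bright means a mean at or above the 75th percentile. Named genes are the 12 bright genes in each direction with the largest smaller replicate difference and the 5 of smallest p in each direction at 1.5-fold or more. Members of small p from some of the 54 lists are named too, as are fixed cardiac and receptor genes. Dcn, Col5a1 and Col16a1 were named after their values were seen. Members and lists were chosen with earlier results of these data known, and lists are described by counts and medians with no test. The fit was tested on simulated data. Alternatives covered the block, normalization, a value of 32 added before the log, the filter, the trend, the arrays in the fit, the probe sets of a gene and each array left out. Promoters are from RefSeq (GRCr8).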

Additional observations from a re-analysis of the deposited data

How the results depend on the processing

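With 2 pools a group, few residual degrees of freedom and no detection calls, dim genes are known only loosely, and 1 array can carry a value. The number of probe sets that passed limma's test was 0 with and without the replicate block, with 32 added before the log, with no filter, with the stricter filter and with no intensity trend. It was 37 without between-array normalization, 4 with arrays centred on their medians and 4 with only the late and early arrays, and 0 to 167 with 1 array left out (167 without late replicate 2, 1 without early replicate 1). A lone array left in a group is assumed to vary like the others. The median of all genes was -0.51 without between-array normalization and -0.28 with median centring, so directions there are relative to that shift. Genes at least 1.5-fold higher in both replicates numbered 194, and 68 without normalization, 22 with 32 added, 650 with no filter and 69 with the stricter filter. Genes lower by as much numbered 271, and 1879 without normalization, 749 with median centring, 54 with 32 added, 680 with no filter and 113 with the stricter filter. Lower genes outnumbered higher ones under each of these settings, with 138 higher against 749 lower under median centring.

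The alternatives followed 38 of the named genes, those ranked over all genes and the fixed ones. Genes named only as members of a list were not among the 38. Of their 415 values, 385 kept their direction and side of the threshold, 11 newly passed it and 19, over 8 genes, turned. Without normalization Nppa was -0.23, Nppb -0.11 and Ppargc1a -0.10. With median centring Myh6 was 0.14, Nppa 0.00 and Atp2a2 0.21. With all probe sets of a gene averaged, Myh6 kept its direction at -0.90, while Ssb was -0.05, Myh7 -0.50, Atp2a2 0.21 and Ppargc1a -0.05. Myh7 was 0.00 with only the late and early arrays. With 1 array left out, Nppa ran from -0.97 to 1.32, Gper1 from -1.56 to 0.27, Atp2a2 from -0.15 to 0.06, Myh6 from -0.11 to 0.05 and Myh7 from -0.05 to 0.05. The cause was not tested. The replicate block changed no call. Of 593 list medians, 376 moved by less than the SD between replicates. The collagen median ran from -1.39 to -0.61 over its 11 alternatives, and 12 or 13 members were lower in each, a count made after seeing the data.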
